A study of Mus musculus with 18 samples.

Results

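The RNase-resistant peaks in coding exons were the stretches of messenger RNA coding sequence that survived digestion with RNase A and T1 when no MDA5 protein had been added. A peak was a member when it overlapped a coding sequence, and no untranslated region (UTR), of a protein_coding transcript of GENCODE M21 on its own strand, by at least 1 bp. Of 30045 peaks in the 6 RNase only libraries, 2276 (7.58%) were members. Joined across libraries where they overlapped or touched, they made 1075 regions in 575 genes.

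The RNA came from liver of mice 8 to 9 days old of 2 genotypes. Adar-/-; Mavs-/- mice lacked the editing enzyme ADAR1 and the adaptor MAVS, and Mavs-/- mice, called wild-type in the sample titles, lacked MAVS alone, so that both genotypes shared the Mavs deletion. Each genotype gave 3 libraries of undigested input RNA, 3 of RNA digested alone (RNase only) and 3 of RNA digested after incubation with recombinant MDA5 without its CARD domains (MDA5-protected). The methods call these biological replicates and the labels do not tie them to single animals, so the p-values below measure the spread between libraries. Lists of peaks give no read depth.

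RNase A and RNase T1 cut single-stranded RNA, so RNA that is base-paired, bound by protein or compact can outlast a short digestion. MDA5, encoded by Ifih1, senses long double-stranded RNA in the cytoplasm and signals through MAVS, and ADAR1 converts adenosines in such duplexes to inosines. Coding exons carry few of the inverted repeats that form long duplexes in introns and 3′ UTRs, and they are spliced to one another in the mature messenger.

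Sequences of 30 bases from GENCODE M21 transcripts (build GRCm38) show 2 kinds of region that recur below. The first set is the 30-base window of lowest predicted folding energy in each of the 4 GC-rich regions that carried a peak in all 6 MDA5-protected libraries, with the bases that pair in the fold in capitals.
Mtcl1: CGCCGCCgGGCgccggaGCCaGGtCGGCGg
Pdcd7: gcgcTGGGCGGaGGCgccGCCgCCGCCCGa
Zfp704: CGGGGGCGctGCgcccGCtccCGCCCCCGa
Dmwd: cCCGGGCCCGccgcagcctcCGGGCCCGGc
The windows lie at chr17:66448994-66449023 on the minus strand for Mtcl1, chr9:65346501-65346530 on the plus strand for Pdcd7, chr3:9609643-9609672 on the minus strand for Zfp704 and chr7:19076453-19076482 on the plus strand for Dmwd, each in the first coding exon. Their predicted energies were -18.8, -19.0, -19.5 and -19.6 kcal/mol in that order, and 18 to 20 of the 30 bases paired.

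The second set joins the last 15 bases of one exon to the first 15 bases, in capitals, of the next exon, whose length the peaks followed. The first 3 are inner exons with some of the strongest regions shared by all 6 RNase only libraries. The last is the first exon of Ifih1 with a peak in all 6 MDA5-protected libraries.
Tgm3: acaagtatccagaagGTTCCAGTGAGGAAA
Ckmt1: cttgatgccagtaaaATCCGTTCTGGCTAC
Tspan1: aatctactcatctttCTCTGTGGTGCAGCC
Ifih1: cgtctgtgaccacagAATCAGACACAAGTT
These exons are coding exon 10 of 13 of Tgm3 (chr2:130041757-130042065, plus strand), exon 4 of 9 of Ckmt1 (chr2:121360556-121360777, plus), exon 2 of 7 of Tspan1 (chr4:116164319-116164525, minus) and exon 4 of 16 of Ifih1 (chr2:62623393-62623497, minus).

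The labelled tissue was checked against its defining markers before the regions were described. The 6 hepatocyte markers (Alb, Apoa1, Ttr, Serpina1a, Apob and Cps1) held 62 to 77 coding-exon peaks in each input library and none in any RNase only or MDA5-protected library. Digested libraries had been called against the input of their genotype, so RNA no more abundant after digestion than in input was not listed. Markers of erythroid cells, Kupffer cells, sinusoidal endothelium and granulocytes were also without a coding-exon peak in all 6 RNase only libraries. Of the 5 stellate cell markers, Des alone had peaks. Of the 4 cholangiocyte markers, Krt19 and Epcam had peaks and Sox9 and Spp1 had none, with 5 to 9 peaks in total per library. Some of the members lay in genes known from epithelium of the large intestine. A list of 32 such genes was chosen after the peak lists had been seen, so that its count, 28 genes with a coding-exon peak in an RNase only library, was largely set by the choice and is no evidence of its own. These genes held 66 to 120 peaks in the Adar-/-; Mavs-/- libraries and 31 to 99 in the Mavs-/- libraries, against 0 to 4 in any input library. Cdx2, Guca2b and Retnlb were among the members of that list with none. Other lists were also chosen after the peaks had been seen. A peak was held by 8 of 12 smooth muscle genes (Acta2, Actg2, Cnn1, Des, Myh11, Myl9, Mylk and Tagln), 2 of 16 small intestine genes, 2 of 12 pancreatic acinar genes and none of 10 kidney tubule or 10 neuronal genes. In bulk RNA, more cells of a type and more RNA per cell cannot be told apart. Whether the RNA of these genes came from the liver or was carried over from other tissue or other libraries was not tested, and this holds for every region in them described below.

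**Figure D1:**
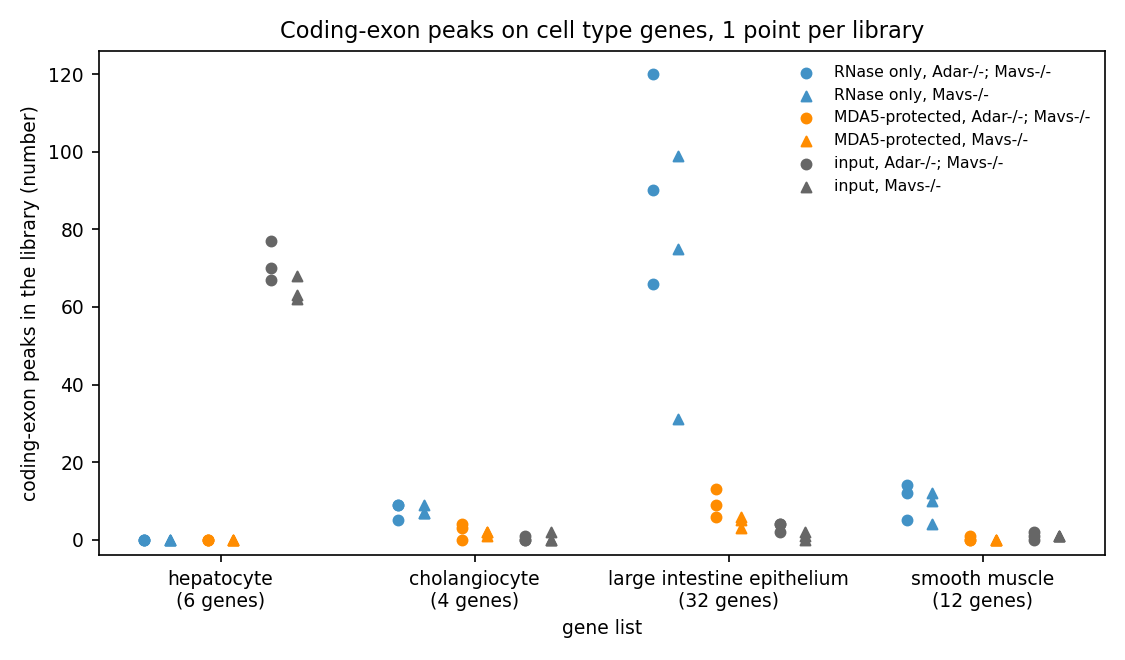
Coding-exon peaks on the genes of 4 lists (y axis, number of peaks; 1 point per library, circles for Adar-/-; Mavs-/- and triangles for Mavs-/-), by fraction. Hepatocyte genes had peaks in input alone (62 to 77), and large intestine genes had 31 to 120 in RNase only libraries.

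The RNase only libraries held 535, 420 and 310 members in Adar-/-; Mavs-/- replicates 1 to 3 and 475, 326 and 210 in Mavs-/- replicates 1 to 3, of 3150 to 6094 peaks each. The 2 genotypes overlapped. Peaks had a median length of 157.5 bp (quartiles 123 and 207, range 28 to 1656). A median 98.7% of a peak lay inside coding sequence, and in 27 peaks under 50% did. A further 2560 RNase only peaks touched both a coding sequence and a UTR and were not members.

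Most regions belonged to a single library. An RNase only library counted for a region only through its member peaks, so a peak there that also touched a UTR did not count. The shares over all RNase only regions given for comparison count peaks of every class. Of the 1075 regions, 608 had a peak in 1 library, 166 in 2, 90 in 3, 67 in 4, 89 in 5 and 55 in all 6. The 55 made 5.12% of the coding-exon regions, and 3.50% of the 13868 regions joined from all RNase only peaks had a peak in all 6. Single-library regions came to 222 in Adar-/-; Mavs-/- replicate 1, 83 and 45 in its other replicates, and 127, 44 and 87 in Mavs-/- replicates 1 to 3. Mavs-/- replicate 3 stood apart in base composition. At least 70% of the bases were G or C in 34.0% of its regions, against 0.942% to 4.58% in the other 5 libraries, and its single-library regions had a median GC content of 78.7%, against 51.3% to 56.6% elsewhere. Without that library, 108 regions (10.9%) had a peak in all of the other 5, against 5.77% of all RNase only regions.

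**Figure D2:**
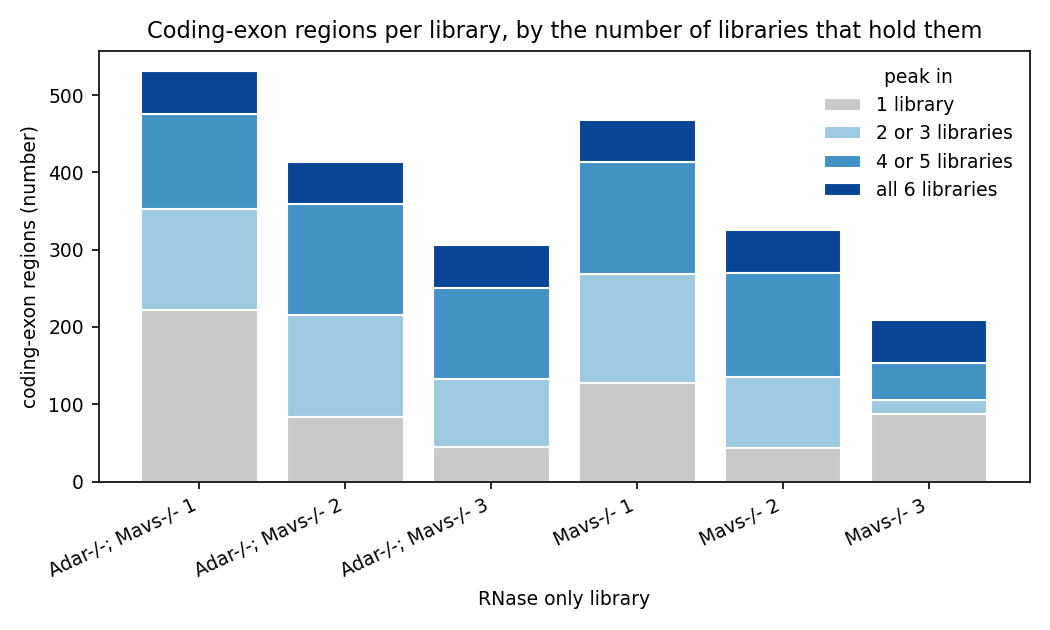
Number of coding-exon regions in each RNase only library (bars, y axis), split by how many of the 6 libraries held a peak on the region. The 55 regions shared by all 6 make the top segment of each bar, and 222 of the regions of Adar-/-; Mavs-/- replicate 1 had a member peak in no other library.

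The 55 regions shared by all 6 libraries lay in 33 genes, and 28 of these genes had no input peak on any exon. Over all protein-coding genes that share was not counted, and 12.0% held a coding-exon input peak. Strength is given as the percentile of a peak's AUC (area under the enrichment curve) among all peaks of its library, so that 50 marks the middle of a list. Only mt-Nd4 and mt-Co3, subunits of respiratory complexes I and IV encoded in mitochondrial DNA, had input peaks on the regions themselves. The strongest nuclear region was coding exon 10 of Tgm3 (chr2:130041755-130042065), encoding transglutaminase 3, which cross-links proteins. Its percentiles were 92.6, 95.0 and 95.9 in Adar-/-; Mavs-/- replicates 1 to 3 and 90.9, 94.7 and 96.3 in Mavs-/- replicates 1 to 3. All 6 values lay above 90, and the genotypes overlapped. Exon 4 of Ckmt1 (chr2:121360556-121360778), a mitochondrial creatine kinase, stood at 94.8, 94.7 and 93.9 and at 94.9, 94.0 and 92.9. Exon 6 of the same gene (chr2:121361102-121361250) varied more, from 67.3 to 93.6.

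The rest of this group lay in genes of several kinds, from mucus and surface proteins to the muscle proteins Eno3 and Tnni1. Exon 17 of Fcgbp (chr7:28117200-28117586), a mucus protein that binds the Fc part of IgG, had percentiles of 96.3, 89.5 and 90.8 in Adar-/-; Mavs-/- and 93.4, 93.9 and 90.1 in Mavs-/-. Exon 11 of Clca1 (chr3:145008902-145009173), a protease secreted by goblet cells, lay between 87.7 and 95.5. Exon 2 of Muc13 (chr16:33798913-33799155), a transmembrane mucin, lay between 76.8 and 93.5, and exon 2 of Tspan1 (chr4:116164308-116164525), a tetraspanin, between 90.5 and 95.2. None of these 4 regions had an input peak. Car1, Car4, Dmbt1, Muc3, Zg16, Lgals4, Krt20, Slc26a3 and Tspan8 were among the other genes with a region in all 6. Genes of the large intestine list, which was chosen after these peaks had been seen, held 19 of the 55 regions and 155 of all 1075, and smooth muscle genes held 0 and 26.

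**Figure D3:**
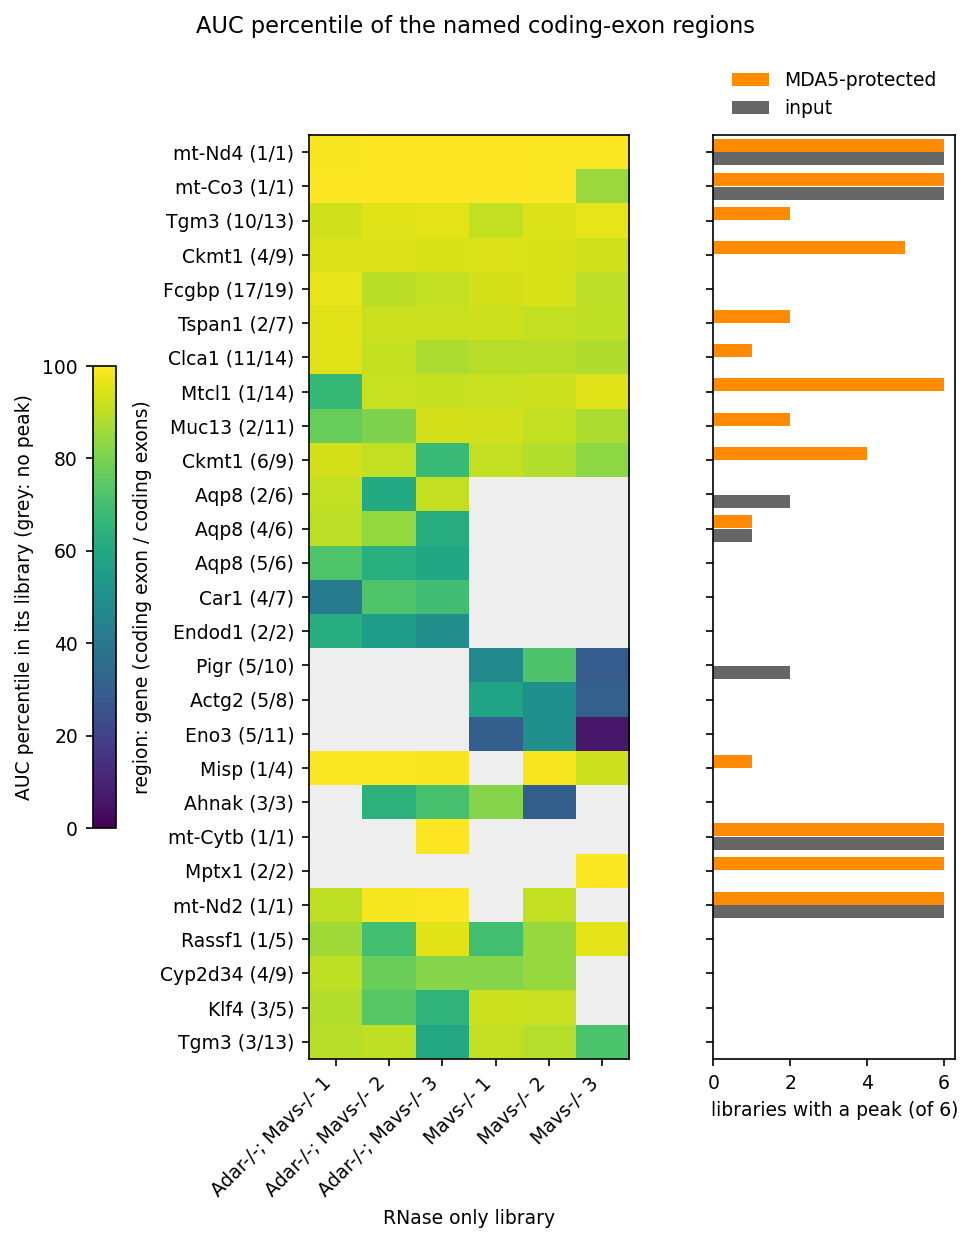
Left, AUC percentile (colour, 0 to 100, with grey for no member peak) of 27 named regions in the 6 RNase only libraries, labelled by gene and coding exon. Right, number of MDA5-protected and input libraries, of 6 each, with a peak on the region. The mitochondrial regions shown fill both bars (the one labelled mt-Cytb is chrMT:13669-14153), whereas Fcgbp exon 17 has neither.

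In some transcripts, peaks lay on many coding exons. Ifih1 had the most regions (14 regions on 14 of its 16 coding exons, 21 peaks), followed by Clca1 (13 regions on 13 of 14 exons, 54 peaks), Dmbt1 (12 regions, 48 coding exons, 32 peaks), Slc26a3 (12 regions on 12 of 20 exons, 30 peaks) and Myo1a (12 regions on 12 of 27 exons, 16 peaks). Slc26a3 is a chloride and bicarbonate exchanger, Dmbt1 a scavenger receptor protein and Myo1a a myosin of the brush border. The order of these genes rested in part on single libraries. For Ifih1, 14 of the 21 peaks fell in Mavs-/- replicate 1, and 4 regions were left without that library. Adar-/-; Mavs-/- replicate 1 held 11 of the 30 Slc26a3 peaks and 11 of the 16 Myo1a peaks, and without it these genes had 6 and 5 regions. Clca1 kept 12 or 13 regions whichever library was left out. Tgm3 had 59 peaks on 11 of 13 exons, and Cyp2c55, a cytochrome P450, 40 peaks on 8 of 9. In contrast, 383 of the 575 genes had 1 region. The longest regions found in at least 3 libraries lay in Misp (1676 bp of the first coding exon, 5 libraries), a protein that positions the mitotic spindle, in mt-Nd4 and the neighbouring mt-Nd5 (1230 bp, 6 libraries) and in Ahnak (1080 bp of its last coding exon, 4 libraries), a very large scaffold protein.

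The ends of the regions followed exons. All but 3 of the 1075 regions touched 1 coding exon, and the exons so touched had a median length of 178 bp. Both ends lay within 5 bp of the ends of the coding exon in 430 regions (40.0%), and at least 1 end did in 798 (74.2%). Among peaks on inner coding exons, both ends did so in 50.2% to 57.2% in the 6 RNase only libraries and in 30.1% to 40.4% in the 6 input libraries. These 2 ranges did not overlap, but that of the 6 MDA5-protected libraries, 31.25% to 54.5%, overlapped both. Coding-exon peaks had median lengths of 151 to 167.5 bp in RNase only libraries and 205 to 237 bp in input libraries, and the part of length was not tested. The aligner, NextGenMap, does not split reads across introns at junctions such as those printed above, and its part in the position of peak ends was not tested. The Tgm3 region exceeded its exon by 2 bp, and the Fcgbp region exceeded its exon by 1 bp and 2 bp on its sides.

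Genotype was compared first over libraries. Members numbered 422 ± 113 in Adar-/-; Mavs-/- and 337 ± 133 in Mavs-/- (SD, n = 3 each; exact permutation test, two-sided p = 0.50, adjusted p = 0.80 over 6 comparisons). Their share of all peaks was 7.22% ± 1.87 and 7.90% ± 1.07 (exact permutation p = 0.70). Median length (156.5 and 161.7 bp), recurrence, meaning the share of members that overlapped a peak of another RNase only library of the genotype (68.8% and 62.9%), input overlap (6.20% and 4.78%) and overlap with MDA5-protected peaks (15.6% and 14.0%) had exact permutation p-values of 0.20 to 0.80. No comparison passed, and 3 libraries against 3 cannot give a p below 0.10.

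A member peak in all 3 Adar-/-; Mavs-/- libraries and no Mavs-/- library was found for 9 regions (0.837% of 1075), against 1.73% of all 13868 RNase only regions. The reverse held for 3 regions (0.279%), against 0.288%. Coding-exon regions were judged by member peaks alone and all regions by peaks of every class, so these shares are not strictly alike. The 9 were 3 exons of Aqp8, a water channel, and 1 region each of Car1, a carbonic anhydrase, Endod1, Pycard, Tgm3, Cnn1 and Gsn. Aqp8 exon 2 (chr7:123462569-123462818) had percentiles of 90.7, 61.1 and 90.8, exon 4 (chr7:123465109-123465323) of 90.0, 84.2 and 62.3, and exon 5 (chr7:123466582-123466721) of 72.5, 62.8 and 59.7. Exon 4 of Car1 (chr3:14770806-14770905) stood at 41.5, 72.6 and 69.5, and the last coding exon of Endod1 (chr9:14356792-14357816) at 62.4, 56.2 and 49.4. In the other direction, Pigr, the receptor that carries polymeric immunoglobulin across epithelium (exon 5, chr1:130847363-130847546), had 48.0, 72.0 and 29.2 in Mavs-/-. Actg2, the actin of enteric smooth muscle (exon 5, chr6:83520656-83520823), had 58.6, 50.1 and 30.6. Eno3, the muscle enolase (exon 5, chr11:70659028-70659162), had 30.1, 50.1 and 6.57. Of the 10 genes in both directions, 8 had a coding-exon peak of the other genotype elsewhere in the gene, namely Aqp8 (1 peak), Pycard (2), Actg2 (3), Cnn1 (5), Pigr (9), Car1 (10), Eno3 (11) and Tgm3 (27). Endod1 and Gsn had none.

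With 1 library left out, the criterion is looser and the counts rise by construction, so they are given beside the share of all RNase only regions under the same setting. Regions of Adar-/-; Mavs-/- alone came to 23 (2.69%, against 6.76%), 22 (2.21%, against 2.93%) and 34 (3.30%, against 5.40%) without its replicates 1 to 3. They came to 18 (1.89%, against 3.45%), 15 (1.45%, against 2.15%) and 10 (1.01%, against 2.14%) without Mavs-/- replicates 1 to 3. In each setting the share of coding-exon regions, counted from member peaks alone, lay below that of all regions, counted from peaks of every class. Regions of Mavs-/- alone came to 19 without Mavs-/- replicate 3 (1.92%, against 1.91%), 6 without Mavs-/- replicate 1 (0.632%, against 0.561%) and 5 without Adar-/-; Mavs-/- replicate 2 (0.503%, against 0.567%). Among the 55 regions in all libraries, the AUC percentile was higher in every Adar-/-; Mavs-/- library than in any Mavs-/- library for 2 (3.64%), against 10.1% of the 485 such regions among all RNase only peaks. It was lower throughout for 2 (3.64%), against 2.89%. The higher ones were Krt20, an intestinal keratin (first coding exon; 57.0, 93.6 and 88.2 against 53.6, 54.9 and 34.8), and Tgm3 exon 9 (94.8, 88.1 and 84.9 against 70.8, 74.5 and 61.5). The lower ones were Epcam, an epithelial adhesion protein (exon 7; 90.6, 80.6 and 38.4 against 94.9, 90.9 and 94.0), and Mtcl1 (67.0, 91.5 and 91.4 against 91.6, 92.6 and 95.6). The deleted genes themselves had no coding-exon peak in any RNase only or MDA5-protected library. In input, Adar had 1 coding-exon peak in each of Adar-/-; Mavs-/- replicates 2 and 3 and Mavs had none, and a list of peaks does not show whether the deleted part was transcribed.

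Input peaks overlapped nearly the same share of coding-exon regions as of all RNase only regions. Of the 1075 regions, 125 (11.6%) overlapped an input peak in at least 1 library, against 10.4%. The digested libraries had been called against input, and the part of that calling in these overlaps was not tested. The share was 15.3% for regions found in 1 RNase only library and 3.64% for those found in all 6. All 6 inputs had a peak on 21 regions, of which 9 were mitochondrial and the rest lay mostly in ribosomal protein and translation genes (Rps15, Rps3, Rpl8, Rplp0, Rack1 and, with 4 regions, Eef1a1). Of the 12 nuclear regions among them, 11 were found in Adar-/-; Mavs-/- replicate 1 alone, and without that library 10 of the 21 regions were left. A coding-exon input peak was present for 108 of the 575 genes (18.8%), against 12.0% of all protein-coding genes. With exons of any kind counted, 388 genes (67.5%) had no input peak. Of the 146 genes with a region in at least 3 libraries, 121 (82.9%) had none. The same share over all protein-coding genes was not counted, so these values do not set the members apart.

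MDA5-protected libraries kept a minority of the regions, where kept means overlapped by a peak. Their lists were shorter, with 1180 to 2868 peaks each, against 3150 to 6094 in RNase only libraries. These regions outlasted RNase without MDA5, so an overlap does not show binding by MDA5. A peak of at least 1 of the 6 MDA5-protected libraries overlapped 136 of the 1075 regions (12.7%), against 21.0% of all RNase only regions. For regions in 1 to 6 RNase only libraries the share was 7.07%, 13.3%, 4.44%, 26.9%, 25.8% and 47.3% (26 of 55) in that order. These shares were not counted over all RNase only regions, so they do not set the members apart. Without mitochondrial genes and Ifih1, 117 of 1052 regions (11.1%) were kept. Among genes of the large intestine list, 27 of 155 regions (17.4%) were kept. Exon 4 of Ckmt1 had a peak in 5 MDA5-protected libraries, whereas exon 17 of Fcgbp had a peak in none of them. In all, 222 regions had a peak in at least 3 RNase only libraries and in no MDA5-protected and no input library. The share of all RNase only regions with this pattern was not counted, and 222 is a description alone. After Fcgbp, the strongest of the 222 regions lay on the first coding exon of Rassf1 (chr9:107554885-107554989), a tumour suppressor (69.5 to 96.1 over 6 libraries), and exon 4 of Cyp2d34 (chr15:82618230-82618664, 77.6 to 90.4 over 5). The next lay on exon 3 of Klf4 (chr4:55529999-55530587), a transcription factor of epithelial differentiation (65.1 to 92.1 over 5), and exon 3 of Tgm3 (chr2:130024331-130024595, 60.5 to 91.0 over 6). The Rassf1 region (105 bp) began 106 bp into its coding exon of 147 bp and ended outside it. That of Cyp2d34 (435 bp) passed both ends of its exon of 161 bp. Cyp2d34 belongs to a family of near-identical genes, so its reads may be shared with paralogs.

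The regions with a peak in all 6 MDA5-protected libraries numbered 23. The share of all RNase only regions with this pattern was not counted, so 23 is a description alone. The 23 were 12 exons of Ifih1, 5 mitochondrial regions and the 4 GC-rich first exons printed above. Beside these stood the last coding exon of Mptx1, a mucosal pentraxin, and 1 region at Dennd1b found in 1 RNase only library. The Mptx1 region (chr1:174332190-174332767) had percentile 99.5 in Mavs-/- replicate 3 and no member peak in the other RNase only libraries. Peaks there that also touched a UTR were not counted.

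The peaks on Ifih1 differed between libraries. In RNase only libraries they lay on 5, 1 and 2 of the 16 coding exons in Adar-/-; Mavs-/- replicates 1 to 3 and on 15, 0 and 2 in Mavs-/- replicates 1 to 3. In Mavs-/- replicate 1 they began at codon 1 of 1025, and peaks on the opposite strand covered all 16 coding exons, whereas no other RNase only library had an opposite-strand peak on the gene. Without that library, Ifih1 had peaks on exons 11 and 13 to 16. In the MDA5-protected libraries the peaks covered 13 or 14 exons, with median percentiles of 92.8 to 97.6 across libraries, and began at codons 216 to 257. Exon 3 had a peak in 3 of these libraries and exons 4 to 16 in all 6, whereas exons 1 and 2, which encode codons 1 to 208 at the end that carries the CARD domains, had a peak in none. Opposite-strand peaks lay on 5 to 10 exons in each MDA5-protected library. No input library had a peak on any Ifih1 coding exon. The added protein was made from a murine MDA5 cDNA without the CARD domains, and whether nucleic acid from that cDNA was present in the libraries was not tested.

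**Figure D4:**
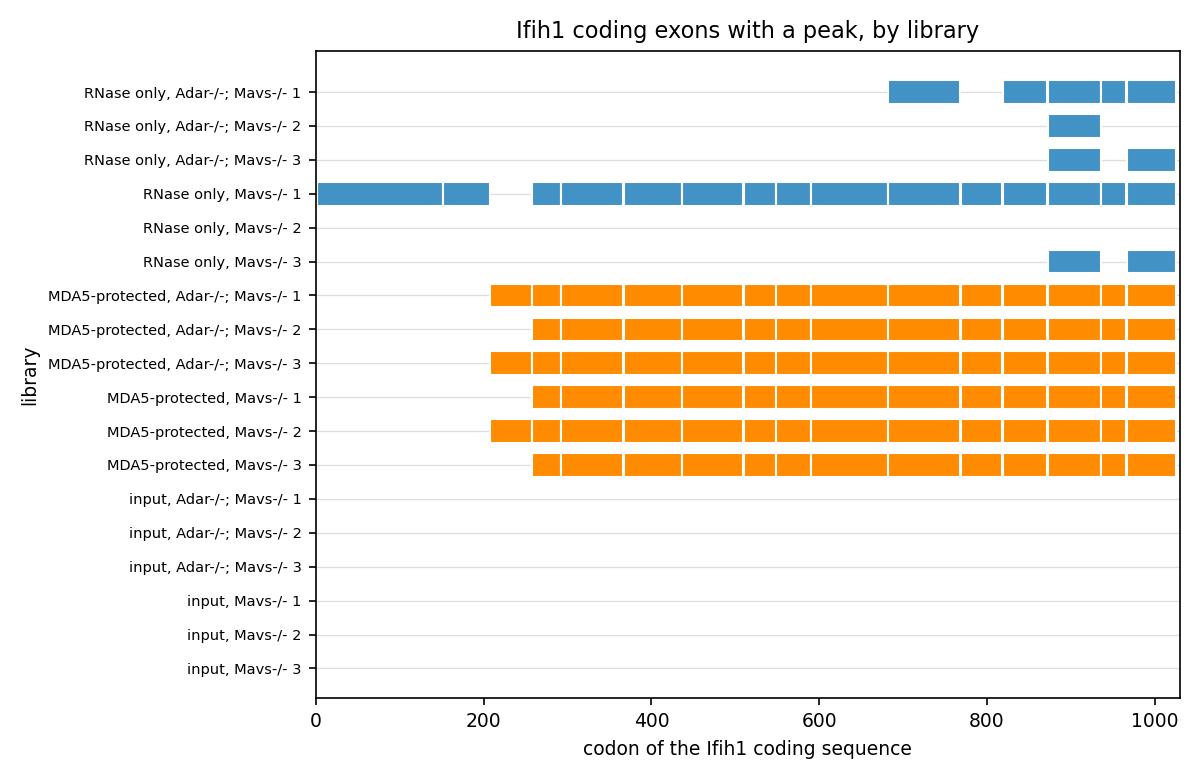
Coding exons of Ifih1 with a peak on the strand of the gene, by codon (x axis) and library (y axis; 18 libraries). MDA5-protected libraries (orange) have peaks on 13 or 14 exons after the first 2, Mavs-/- replicate 1 of the RNase only libraries (blue) has peaks on 15 exons, and input has none.

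The GC-rich regions formed a group of their own, which was set apart after the values had been seen and is described without a test. Of the 1058 regions whose sequence could be read from a transcript, 85 were at least 70% G or C, and the median over all was 53.4%. The first or single coding exon held 72 of the 85 (84.7%), against 102 of the other 973 (10.5%). MDA5-protected peaks overlapped 22 of them (25.9%), against 11.0% of the others. In 1 library alone were 70 of the 85, 60 of them in Mavs-/- replicate 3, and 9 recurred in at least 3 libraries. The predicted folding energy per base had a median of -0.558 kcal/mol in the GC-rich regions and -0.261 kcal/mol in the others. Predicted energy depends on GC content, by which these regions were chosen, so the choice itself largely sets this difference. A peak on the opposite strand overlapped 43 of the 85.

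Mtcl1, which cross-links microtubules, had its region at chr17:66448928-66449118 with 82.7% GC, and percentiles of 67.0, 91.5 and 91.4 in Adar-/-; Mavs-/- and 91.6, 92.6 and 95.6 in Mavs-/-. Pdcd7, a protein of the minor spliceosome (chr9:65346390-65346571, 83.0% GC), had 84.8, 31.0 and 93.4 and then 90.9, 92.7 and 95.1. Zfp704, a zinc finger protein (chr3:9609445-9609689, 84.5% GC), had no member peak in Adar-/-; Mavs-/- replicate 1 and between 40.7 and 89.6 in the other 5 libraries. Dmwd, a WD repeat protein (chr7:19076438-19076587, 86.7% GC), had member peaks in Mavs-/- replicates 1 (25.2) and 3 (71.0) alone, although all 6 MDA5-protected libraries had a peak. None of the 4 regions had an input peak. RNase only peaks on the opposite strand covered 166 of 182 bp in Pdcd7 and 232 of 245 bp in Zfp704. They covered 0 bp in Mtcl1 and Dmwd.

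**Figure D5:**
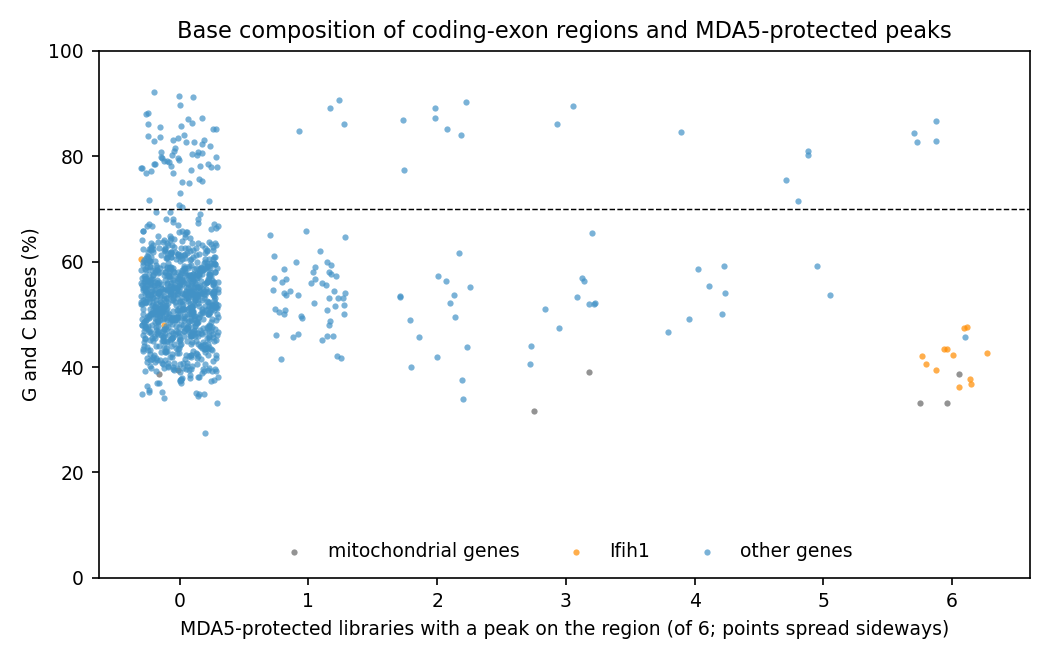
GC content (y axis, percent of bases) of 1058 coding-exon regions against the number of MDA5-protected libraries with a peak on them (x axis, 0 to 6; points are spread sideways, and the dashed line marks 70%). Regions kept in all 6 are the GC-rich first exons at 82.7% to 86.7%, Ifih1, mitochondrial genes and Mptx1.

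Mitochondrial messengers gave 9 regions and 34 peaks, and all 9 regions overlapped an input peak in all 6 libraries. Both strands of mitochondrial DNA are transcribed over nearly their whole length, so complementary RNA is made from every gene. The region over mt-Nd4 and mt-Nd5 (chrMT:10968-12197) had percentiles of 98.9 to 99.8, and that of mt-Co3 (chrMT:8672-9508) had 99.9, 99.7 and 99.7 in Adar-/-; Mavs-/- and 99.8, 99.4 and 84.9 in Mavs-/-. Both lay near the top of every list, apart from mt-Co3 in Mavs-/- replicate 3. The mt-Nd2 region (chrMT:4329-4945) had peaks in 4 libraries (90.5 to 99.5), and that of mt-Cytb (chrMT:14227-15301) in 5 (95.0 to 99.8). All 6 MDA5-protected libraries had a peak on this mt-Nd2 region, whereas none had one on this mt-Cytb region or on the mt-Co1 region. All 9 regions overlapped an RNase only peak on the opposite strand, against 67 of the 1066 nuclear regions. mt-Nd6, encoded on the other strand (chrMT:13654-14095, percentiles 35.4 and 99.0 in 2 libraries), overlapped a plus-strand region (chrMT:13669-14153) that reached the start of mt-Cytb by 9 bp, and both had peaks in all 6 MDA5-protected libraries.

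Members were next compared with RNase only peaks in 3′ UTRs (8071 peaks) and in introns (7889 peaks) within each of the 6 libraries. Coding-exon peaks were shorter than 3′ UTR peaks (medians 159 ± 6.08 and 255 ± 25.2 bp, SD, n = 6; lower in 6 of 6 libraries; exact sign-flip p = 0.031, adjusted p = 0.0446 over 10 comparisons). The same exact p-values held for the next 3 differences. Their AUC percentile was lower (48.8 ± 1.03 and 54.5 ± 1.75), fewer overlapped an input peak (5.49% ± 1.21 and 15.8% ± 4.07), and more overlapped an MDA5-protected peak (14.8% ± 4.78 and 9.90% ± 4.94; higher in 6 of 6). With the AUC minimum raised to 1000, the difference in input overlap turned to 1.44 percentage points higher in coding exons (exact p = 0.1875) and that in MDA5 overlap fell to 2.35 points (exact p = 0.34375). Recurrence was 65.9% ± 13.2 and 66.3% ± 14.7 (exact p = 0.96875). The smallest p this design allows is 0.031. Here and below, overlap was counted with any of the 3 input or 3 MDA5-protected libraries of the genotype. Libraries of a genotype thus shared these lists, whereas the test treats the 6 libraries as independent. Longer peaks also have more room for an overlap of 1 bp.

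Against intron peaks, coding-exon peaks overlapped an MDA5-protected peak less often (14.8% ± 4.78 and 43.5% ± 13.4, lower in 6 of 6 libraries, exact sign-flip p = 0.031, adjusted p = 0.0446). They overlapped input more often (5.49% and 1.16% ± 0.727; higher in 6 of 6) and had lower AUC percentiles (48.8 and 52.8 ± 0.604; lower in 6 of 6), with the same exact p. The percentile difference had an exact p of 0.09375 at an AUC minimum of 1000. Median length (159 and 190.5 ± 28.5 bp, exact p = 0.0625) and recurrence (65.9% and 67.9%, exact p = 0.65625) did not pass.

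Coding exons took a smaller share of the peak lists of digested libraries than of input. Digested libraries had been called against input, whereas input libraries had not. The part of that calling in the differences from input given here was not tested. They made 7.56% ± 1.41 of RNase only peaks, 44.7% ± 1.73 of input peaks and 3.75% ± 0.969 of MDA5-protected peaks (SD, n = 6; both differences of 1 sign in 6 of 6 libraries, exact sign-flip p = 0.031, adjusted p = 0.031 over 2 comparisons). Within the coding sequence, the first coding exon held 11.5% ± 8.81 of RNase only members and 4.87% ± 0.666 of coding-exon input peaks, and the last held 6.87% ± 1.49 and 3.16% ± 0.974. Inner exons held 76.4% ± 11.5 and 90.7% ± 1.94. All 3 differences had 1 sign in 6 of 6 libraries (exact sign-flip p = 0.031, adjusted p = 0.0417 over 4 comparisons). The first exon share was 29.0% in Mavs-/- replicate 3 and 5.98% to 11.0% elsewhere, and without that replicate the mean difference fell from 6.61 to 3.13 percentage points. The last exon difference had an exact p of 0.09375 at an AUC minimum of 1000. The median relative position, 0 at the start codon and 1 at the stop codon, was 0.557 in RNase only and 0.476 in input (exact p = 0.0625).

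The sequences of the peaks differed little from the coding sequence beside them. Each peak was compared with stretches of the same length on its 2 sides in the same transcript, which may themselves hold peaks. The share of U in the peaks fell by 0.754 percentage points (lower in 6 of 6 libraries, exact sign-flip p = 0.031, adjusted p = 0.156 over 5 comparisons), which did not pass after adjustment. A, C and G differed by -0.564, 0.638 and -0.0182 points (exact p of 0.125 to 1.0). Predicted folding energy was lower in the peaks than beside them in 2 of 6 libraries and higher in 3, and the median difference was 0 in the other (exact p = 0.875). These means leaned on Mavs-/- replicate 3, where A, C, G and U differed by -2.52, 1.90, 1.63 and -2.03 points. Without that library the mean differences were -0.172 for A, 0.385 for C, -0.348 for G and -0.499 for U.

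Of all protein-coding genes, 2.62% held a coding-exon peak in an RNase only library, and the lists of liver functions lay near or below that share. At this share 0 to 2 genes of a list say little about it, and the part of the calling against input was not tested. No apolipoprotein gene of 17, no urea cycle or amino acid enzyme gene of 65, no gene of lipid synthesis of 41 and no secretory chaperone of 45 had a coding-exon peak in an RNase only library, whereas 46.3% to 88.2% of these lists had one in input. Among 81 plasma protein genes 1 did, Saa1, an acute-phase protein, with 1 or 2 peaks in every RNase only library and none in input. Of 94 cytochrome P450 genes, Cyp2c55 had 3 to 8 peaks per library and Cyp2d34 had 0 to 6, and 38 genes of the family had input peaks. Of 82 cytosolic ribosomal protein genes 12 had RNase only peaks, and Rpl3 alone had them in at least 3 libraries. Cytoskeleton genes were represented by 9 of 42, 3 of them in at least 3 libraries: Acta2, Ahnak and Ezr, the last a linker of actin to the membrane. The interferon and double-stranded RNA sensor list had 5 of 49 genes, among them Ifih1, Oas1a, Irf7 and Ifi27, and Ifih1 was the one with MDA5-protected peaks. Of the other lists, translation factors had 5 of 39, histones 2 of 101, fatty acid oxidation 1 of 48 (Acadl) and erythroid genes 1 of 31 (Car1, which is also on the large intestine list), and collagens and fetal genes had none.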

How the data were processed

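Lists of peaks from 18 mouse liver libraries were analysed. To make them, the authors removed adapters (Trim Galore 0.6.6), placed reads on GRCm38 (NextGenMap) and called peaks on each strand (Genrich 0.6.1), with the input of the genotype as control for RNase only and MDA5-protected libraries. The deposited columns hold the area under the curve as signal (at least 500 in every peak), −log10 p and q values and a score. Peaks were classed by GENCODE M21 (any UTR overlap set a peak apart), joined across libraries where they overlapped or touched, and called shared at 1 bp. Folding used ViennaRNA (2.7.2). Groups were compared by exact permutation and exact sign-flip tests with Benjamini-Hochberg adjustment within families, written in Python (numpy 2.4.6, pandas 2.3.3). The classing and joining of peaks were checked on simulated peaks and the exact tests on simple values, and the other steps had no such check. Members and lists were chosen with earlier results of these data known. Named regions were the strongest in all 6 RNase only libraries, the strongest of 1 genotype, the longest, those with most MDA5-protected libraries, and the strongest without input and MDA5, beside the genes with most regions and the members of the lists. Alternatives were an AUC of 1000, basic transcripts, 50% of the peak in coding sequence, other overlaps, equal numbers of peaks and each library left out. A few items are not reported here.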

Additional observations from a re-analysis of the deposited data

How the results depend on the processing

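Of 350 recomputed values, 310 counted as unchanged. For a test under another setting, this meant the same direction and side of the threshold. With 1 library left out, differences other than genotype were judged by size. They counted as unchanged when they moved by less than their SD over libraries, and the threshold was not checked. Raising the AUC minimum to 1000 reversed the difference between genotypes in overlap with MDA5-protected peaks (to -3.13 points), the input difference from 3′ UTRs (to 1.44), the recurrence difference from introns (to 5.94) and the differences in A and G (to 0.164 and 0.392), and no longer passed for MDA5 overlap against 3′ UTRs (2.35), AUC percentile against introns (-3.19) and last exons (2.50). It left 1 region in Adar-/-; Mavs-/- alone (0.437%, against 1.35% of all RNase only regions), 0 in Mavs-/- alone (against 0.120%) and 8 in all 6 (3.49%, against 3.56%). Equal numbers of peaks reversed the number of members by genotype (to -19.3), length by genotype (to 1.5 bp), recurrence against 3′ UTRs (to 0.460) and introns (to 1.88) and G (to 0.0254). The unadjusted exact p for U, which had not passed after adjustment, rose to 0.0625 (-0.694), and 4 regions stood in Adar-/-; Mavs-/- alone (0.647%, against 0.798%) and 36 in all 6 (5.83%, against 3.94%). Requiring 50% overlap reversed recurrence against 3′ UTRs (to 5.53), and the library of the same number reversed MDA5 overlap by genotype (to -0.806). Leaving out mitochondrial genes and Ifih1, a choice made after seeing the data, reversed G (to 0.0673). None of the reversed differences had passed except the input overlap against 3′ UTRs.

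Leaving out 1 library in turn gave genotype differences of -1.69 to 0.156 points in share, -14.2 to 29.5 in recurrence, -0.675 to 3.25 in input overlap and -2.58 to 4.83 in MDA5 overlap. It gave 10 to 34 regions in Adar-/-; Mavs-/- alone, 4 to 19 in Mavs-/- alone and 58 to 108 in all. The cause of these changes was not tested, apart from the smaller number of libraries or peaks by construction. For same-numbered libraries of the 2 genotypes, the labels gave only a common number. Correlations of their deviations were 0.0652, 0.00694 and 0.0950 over 467 regions, and pairs of unlike number gave -0.121 to 0.0551. Whether same-numbered libraries shared a batch was not tested. The replicate block over the 3 pairs could not move a call, since 0.25 is the smallest exact p it allows (number of members 84.7 higher in Adar-/-; Mavs-/-, exact p = 0.25). The lists hold no read counts, so depth behind a missing peak is unknown.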
